A study of Mus musculus with 24 samples.

Results

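Mouse macrophages grown from induced pluripotent stem cells (iPSC) were compared here with mouse macrophages grown from bone marrow (BM) after both had spent 6 days in co-culture. The comparison holds 6 of the 24 RNA-seq libraries of the series, 3 from iPSC-derived and 3 from BM-derived macrophages, chosen by their labels alone. The other 18 libraries are the same 2 sources at days 3 and 12 of co-culture and at day 0 without co-culture, 3 libraries for each source and day. The series' design text calls the 3 libraries of a group independent replicates. The labels used here do not give the strain, sex or age of the source animals, any allele, the iPSC line, or the cells that the macrophages were cultured with. All 6 day 6 libraries share the co-culture and its length, so source is the only labelled difference between them.

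Macrophages of adult tissues come from more than one developmental source. Microglia, the macrophages of the brain parenchyma, arise in the mouse from early yolk sac progenitors, while bone marrow stem cells make monocytes that can enter tissues and become macrophages there. Macrophages made from pluripotent cells are used as a model of the early kind, and bone marrow macrophages as a model of the later kind. Bone marrow-derived macrophages are known for their capacity to raise MHC class II molecules, which present peptides to T cells, whereas parenchymal microglia are known for a set of sensing genes such as P2ry12, Tmem119 and Cx3cr1.

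Levels are CPM, counts of a gene scaled to the size of its library after TMM normalization, and differences are log2 fold changes of iPSC-derived over BM-derived macrophages with their standard error (SE) from edgeR's quasi-likelihood fit. A gene was called, and the words rose, fell, higher and lower are used for calls, when its Benjamini-Hochberg adjusted p over 15000 tested genes was below 0.05. Library totals were 8126839, 7945459 and 10486809 counts in iPSC-derived macrophages and 9000037, 5839316 and 7890604 counts in BM-derived macrophages. Log2 CPM correlated at 0.927 to 0.937 among the iPSC-derived libraries and at 0.958 to 0.962 among the BM-derived libraries, so the iPSC-derived replicates spread more. Between the sources it correlated at 0.881 to 0.892. The first principal component of all 24 libraries, with 25.4% of the variance, set the sources apart on every day.

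Some libraries differ in ways that the source labels do not state. In iPSC-derived replicate 3, genes with under 1000 bases of exon stood 1.51 log2 units above genes with over 5000 bases, against 0.24 and -0.43 in iPSC-derived replicates 1 and 2 and -0.06, -0.18 and -0.46 in the BM-derived libraries. Short genes are therefore high in that library, and list counts are given without it where they move by over 1.5 times. The summed level of 14 fibroblast and mural cell markers was 805.7, 439.8 and 971.9 CPM in the iPSC-derived libraries, against 44.4, 52.5 and 81.8 CPM in the BM-derived libraries. The 2 ranges do not overlap, so within these 6 libraries the level of these markers and the source of the macrophages cannot be told apart. Fewer cells of a type and less RNA per cell cannot be told apart either in such bulk samples. Macrophage genes stood high in both groups: the summed level of 21 general macrophage markers was 25334.1, 23940.1 and 31971.2 CPM in iPSC-derived and 31965.7, 30666.2 and 29156.4 CPM in BM-derived macrophages.

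**Figure D1:**
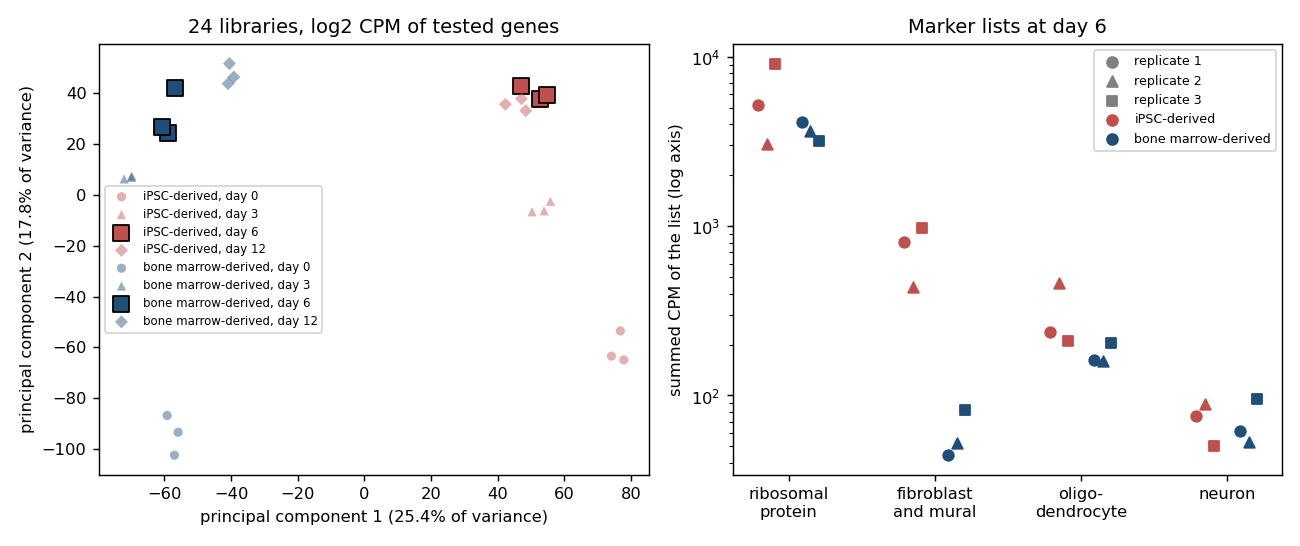
The left panel places the 24 libraries on the first 2 principal components of log2 CPM, with the 6 day 6 libraries as large squares, and the right panel gives the summed CPM (log axis) of 4 marker lists in each day 6 library, with iPSC-derived libraries in red and BM-derived libraries in blue. The fibroblast and mural sums lie in the range 439.8 to 971.9 CPM in the iPSC-derived libraries, above the 44.4 to 81.8 CPM of the BM-derived libraries, while the neuron sums overlap.

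Of the 15000 tested genes, 1982 were called (13.2%), 1048 of them higher (6.99%) and 934 lower (6.23%) in iPSC-derived macrophages. Calls of at least 2-fold numbered 663 higher and 630 lower, and the median log2 fold change over all tested genes was 0.01. Without scaling factors the split was 806 higher and 1182 lower, with a median of -0.09. CPM values of the 3 and 3 libraries did not overlap for 4564 genes (30.4%). Of the 1982 called genes 1901 did not overlap, so a lack of overlap is no support separate from a call. The number called was 1385 without BM-derived replicate 3, 1352 without BM-derived replicate 1 and 1330 without BM-derived replicate 2, and 1585 without iPSC-derived replicate 3. With the fibroblast and mural marker level as a covariate, a fit chosen after seeing the data, 264 genes were called, and 1808 had an unadjusted p below 0.05. The plot of list shares sets each gene list beside these backgrounds.

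**Figure D2:**
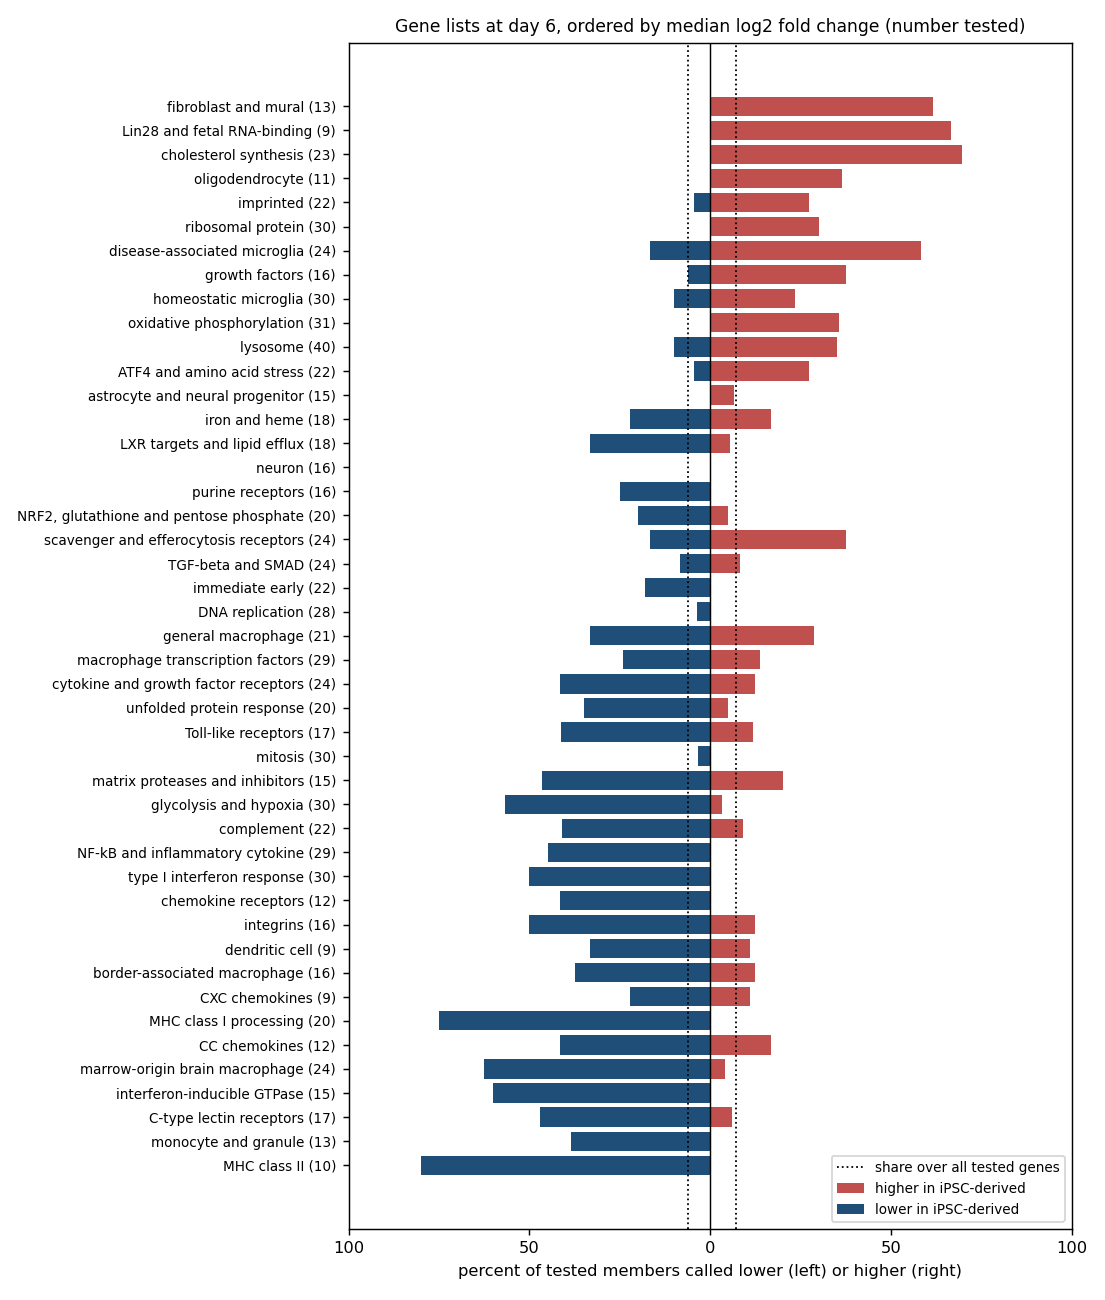
Bars give the percent of tested members of each list that were higher (right, red) or lower (left, blue) in iPSC-derived than in BM-derived macrophages at day 6, for lists with at least 9 tested members, ordered by the median log2 fold change. Dotted lines mark the shares over all 15000 tested genes, 6.99% higher and 6.23% lower; MHC class II, with 8 of 10 members lower, and cholesterol synthesis, with 16 of 23 higher, have the longest bars in the 2 directions.

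Genes for antigen presentation by MHC class II stood far lower in iPSC-derived macrophages. Of 10 tested members of the class II list, 8 fell and none rose, with a median log2 fold change of -4.51, and the same 8 of 10 was found with any 1 library left out and 6 of 10 with the fibroblast covariate. H2-Aa and H2-Eb1, the alpha chain of I-A and the beta chain of I-E, lie in GRCm38 on chromosome 17, 34282744 to 34287827 and on chromosome 17, 34305877 to 34316199. Their start regions are shown because these 2 genes had the lowest iPSC-derived levels of the list and both carry the same element. The sequences are the 250 bases upstream of the RefSeq start (GRCm38.p6), 5′ to 3′ on the gene's strand, at chr17:34287824-34288073 (minus strand) and chr17:34305617-34305866 (plus strand), with the letters CTGATTGG in capitals, the Y box motif that class II promoters are known for.
H2-Aa: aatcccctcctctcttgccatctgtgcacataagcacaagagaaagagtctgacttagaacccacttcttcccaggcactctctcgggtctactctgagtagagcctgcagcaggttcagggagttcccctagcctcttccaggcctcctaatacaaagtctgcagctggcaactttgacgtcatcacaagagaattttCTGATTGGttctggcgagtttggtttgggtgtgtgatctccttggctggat
H2-Eb1: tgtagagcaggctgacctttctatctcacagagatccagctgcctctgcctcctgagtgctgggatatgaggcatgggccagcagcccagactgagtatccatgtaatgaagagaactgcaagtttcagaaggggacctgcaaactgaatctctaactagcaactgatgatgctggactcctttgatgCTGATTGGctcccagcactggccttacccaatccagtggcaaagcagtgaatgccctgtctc
Searched on both strands, these letters occur in 3 of the 7 tested class II members with a RefSeq promoter entry (H2-Aa, H2-Eb1 and H2-Oa) and in 3.83% of all 32851 windows of this length. The match is a description of the letters and was not tested for binding.

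H2-Eb1 had 0 counts in each of the 3 iPSC-derived libraries, against 134, 109 and 104 CPM in the BM-derived libraries, and was at least 1027-fold lower. H2-Aa had 1 count over the 3 iPSC-derived libraries (0, 0 and 0.0976 CPM), against 174, 116 and 133 CPM in the BM-derived libraries, which makes the BM-derived level 3796 times the iPSC-derived one (95% interval 681 to 149980.5). Both genes were at or near 0 in every iPSC-derived library and above 100 CPM in every BM-derived library. Cd74 had 3.38, 5.58 and 5.17 CPM in the iPSC-derived libraries, against 423, 324 and 351 CPM in the BM-derived libraries (log2 fold change -6.27 ± 0.52 SE, adjusted p = 4.1e-08). Cd74 encodes the invariant chain that guides class II molecules to the endosome, and its groups do not overlap. H2-DMa had 7.26, 4.96 and 7.42 CPM in the iPSC-derived libraries, against 153, 126 and 141 CPM in the BM-derived libraries (log2 fold change -4.41 ± 0.24 SE, adjusted p = 6.6e-12). H2-DMb1 had 8.13, 5.83 and 8.01 CPM in the iPSC-derived libraries, against 71.6, 74.4 and 79 CPM in the BM-derived libraries (log2 fold change -3.35 ± 0.32 SE, adjusted p = 4.1e-08). These 2 genes encode the chains of H2-M, which loads peptides onto class II molecules, and they held a low but measurable level in all 3 iPSC-derived libraries.

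MHC class I genes and their processing machinery were also lower, by less. Of 20 tested members 15 fell and none rose (median log2 fold change -1.48), with 14 or 15 lower when any 1 library was left out and 7 with the fibroblast covariate. H2-K1 had 1014, 873 and 921 CPM in the iPSC-derived libraries, against 4009.7, 4283 and 4611 CPM in the BM-derived libraries (log2 fold change -2.20 ± 0.12 SE, adjusted p = 4.1e-12). H2-D1, the other classical class I heavy chain, had 1814, 1683 and 1583 CPM in the iPSC-derived libraries, against 4530.2, 4938 and 5301 CPM in the BM-derived libraries (log2 fold change -1.54 ± 0.11 SE, adjusted p = 2.7e-10). Both remained highly expressed in iPSC-derived macrophages, and neither overlaps between groups. H2-T23 had 157, 110.2 and 149 CPM in the iPSC-derived libraries, against 551, 542 and 534 CPM in the BM-derived libraries (log2 fold change -1.97 ± 0.14 SE, adjusted p = 2.8e-10). The non-classical gene H2-M3, which presents formylated peptides, had 49.8, 34.4 and 43.5 CPM in the iPSC-derived libraries, against 147, 156 and 172 CPM in the BM-derived libraries (log2 fold change -1.90 ± 0.14 SE, adjusted p = 8.5e-10). B2m, the light chain shared by class I molecules, was not called, with 3216, 1550.4 and 3700.1 CPM in the iPSC-derived libraries, against 3899, 3605 and 3012 CPM in the BM-derived libraries and overlapping groups. Class I heavy chains are near-identical copies of each other, and counting without multi-mapping reads may split or lose their reads, so the value of a single heavy chain gene is uncertain.

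Genes that interferons induce fell in the same direction. Of 30 tested members of the type I interferon list 15 fell and none rose (median -0.79), and of 15 interferon-inducible GTPases 9 fell and none rose (median -1.77). Without iPSC-derived replicate 3 the counts were 11 and 9, and with the fibroblast covariate they were 4 and 1. Oas3, which senses double-stranded RNA, had 30.6, 18.1 and 23.2 CPM in the iPSC-derived libraries, against 190.4, 181 and 205 CPM in the BM-derived libraries (log2 fold change -3.00 ± 0.37 SE, adjusted p = 5.9e-06). Ifi44 had 5.25, 11.3 and 3.71 CPM in the iPSC-derived libraries, against 90.7, 97.1 and 109 CPM in the BM-derived libraries (log2 fold change -3.88 ± 0.49 SE, adjusted p = 6.8e-06). For both genes all 3 iPSC-derived libraries stood below all 3 BM-derived ones. The nucleic acid sensor gene Zbp1 had 19, 10.4 and 5.17 CPM in the iPSC-derived libraries, against 80.7, 81.9 and 97.2 CPM in the BM-derived libraries (log2 fold change -2.92 ± 0.47 SE, adjusted p = 1.3e-04). Isg15, Ifit1 and the other 13 members were not called, with Isg15 at 9.26, 6.32 and 21 CPM in the iPSC-derived libraries, against 13.7, 15.2 and 9.94 CPM in the BM-derived libraries and overlapping groups. Without 1 library the fold change moved by over 1.5 times, to a log2 value of -4.47 for Ifi44 without iPSC-derived replicate 2.

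Among the GTPases, which act on vacuoles that hold pathogens, Tgtp2 had 0.25, 0.248 and 0.586 CPM in the iPSC-derived libraries, against 40.2, 33.6 and 40 CPM in the BM-derived libraries (log2 fold change -6.61 ± 0.73 SE, adjusted p = 4.5e-07). Iigp1 had 1.5, 4.09 and 3.03 CPM in the iPSC-derived libraries, against 52.1, 60.3 and 51.6 CPM in the BM-derived libraries (log2 fold change -4.24 ± 0.65 SE, adjusted p = 6.9e-05). Ifi47 had 39.7, 31.6 and 17.6 CPM in the iPSC-derived libraries, against 193, 191 and 187 CPM in the BM-derived libraries (log2 fold change -2.69 ± 0.35 SE, adjusted p = 8.4e-06). All 3 are far apart between the groups, with Tgtp2 near 0 in each iPSC-derived library. Gbp2 had 8.76, 16.2 and 6.64 CPM in the iPSC-derived libraries, against 54.6, 43.8 and 37.4 CPM in the BM-derived libraries (log2 fold change -2.11 ± 0.32 SE, adjusted p = 3.8e-05). Reads of these GTPases are open to the same doubt as those of class I, since the genes sit in clusters of close copies. The upstream windows of Oas3 and Tgtp2 are shown because each carries the letters GAAA, 2 bases of any kind and GAAA again (capitals), a core of the interferon-stimulated response element, at chr5:120777660-120777909 and chr11:49064213-49064462 (both on the minus strand, GRCm38.p6, RefSeq).
Oas3: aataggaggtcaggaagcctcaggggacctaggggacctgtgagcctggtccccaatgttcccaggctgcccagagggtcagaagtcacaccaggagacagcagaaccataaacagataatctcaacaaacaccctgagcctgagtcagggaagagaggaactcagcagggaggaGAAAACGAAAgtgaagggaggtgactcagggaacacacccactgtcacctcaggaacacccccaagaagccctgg
Tgtp2: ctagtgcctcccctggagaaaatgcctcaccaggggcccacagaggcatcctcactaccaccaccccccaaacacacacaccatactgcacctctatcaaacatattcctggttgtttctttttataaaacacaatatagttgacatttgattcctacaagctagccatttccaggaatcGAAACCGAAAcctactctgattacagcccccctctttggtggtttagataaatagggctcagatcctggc
On either strand the letters occur in 10 of the 21 tested interferon list members with a promoter entry, in 8 of 9 such GTPases, and in 2.98% of all 32851 windows. Members with the letters include genes that were not called, Isg15 and Ifit1 among them.

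**Figure D3:**
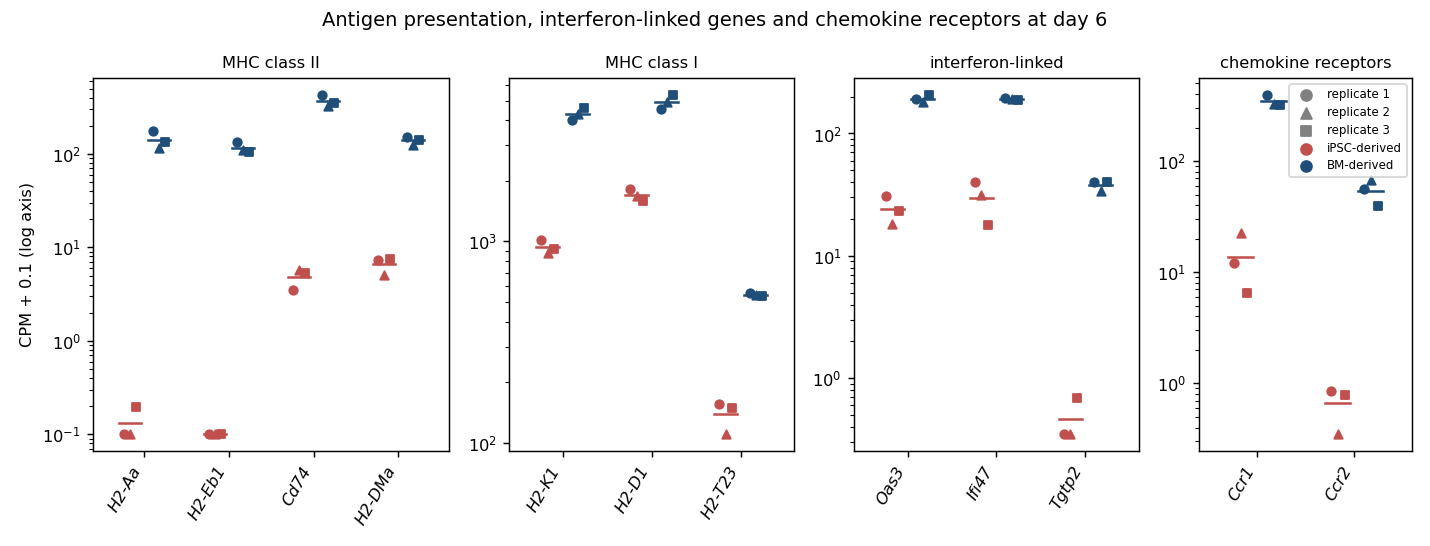
Each point is the level of 1 gene in 1 day 6 library as CPM + 0.1 on a log axis, with iPSC-derived libraries (red) left of BM-derived libraries (blue), a horizontal line at the mean of 3, and a marker shape for each replicate number. None of the 12 genes overlaps between the sources, and H2-Aa, H2-Eb1, Tgtp2 and Ccr2 lie below 1 CPM in each iPSC-derived library.

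Genes known from macrophages of bone marrow origin in the brain were mostly lower in iPSC-derived macrophages. Of 24 tested members of that list 15 fell and 1 rose (median -1.71), with 13 to 16 lower when any 1 library was left out and 6 with the fibroblast covariate. Ccr2 had 0.751, 0.248 and 0.683 CPM in the iPSC-derived libraries, against 56.2, 66.9 and 39.5 CPM in the BM-derived libraries (log2 fold change -6.54 ± 0.57 SE, adjusted p = 1.1e-08). Ccr2, on chromosome 9, 124101950 to 124113557, encodes the chemokine receptor by which monocytes leave the marrow, and it was below 1 CPM in each iPSC-derived library. Ms4a4c had 3.75, 5.46 and 1.95 CPM in the iPSC-derived libraries, against 127, 132 and 143 CPM in the BM-derived libraries (log2 fold change -5.19 ± 0.31 SE, adjusted p = 2.0e-11). Clec12a, an inhibitory lectin of myeloid cells, had 119.5, 109.8 and 192 CPM in the iPSC-derived libraries, against 401, 430.4 and 479.9 CPM in the BM-derived libraries (log2 fold change -1.64 ± 0.20 SE, adjusted p = 1.8e-06). Emilin2 had 6.88, 15.4 and 25.1 CPM in the iPSC-derived libraries, against 224, 250.1 and 243 CPM in the BM-derived libraries (log2 fold change -3.91 ± 0.37 SE, adjusted p = 1.7e-07). These genes too were lower in each iPSC-derived library than in any BM-derived one. The antibacterial lysozyme gene Lyz2 had 6219, 3398 and 5629.9 CPM in the iPSC-derived libraries, against 18471, 16992 and 17104 CPM in the BM-derived libraries (log2 fold change -1.79 ± 0.41 SE, adjusted p = 0.00572). Fn1, fibronectin, was the member that rose, with 178, 116 and 98.9 CPM in the iPSC-derived libraries, against 17.1, 9.28 and 14.5 CPM in the BM-derived libraries (log2 fold change 3.25 ± 0.80 SE, adjusted p = 0.00942). Fibronectin is also made by fibroblasts, whose markers were higher in the same libraries, and their part in the Fn1 values was not tested. Ms4a7, another member, was not called (log2 fold change -0.36 ± 0.24 SE, adjusted p = 0.381). It had 818.5, 393.1 and 1079.8 CPM in the iPSC-derived libraries, against 1094.9, 1039.4 and 811.2 CPM in the BM-derived libraries, with overlapping groups. Of the genes above a call was lost for Fn1 without BM-derived replicate 2.

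Monocyte and granule genes were mostly near the lower end of detection in both groups. Of the 24 markers 15, 18 and 15 had 0 counts in the iPSC-derived libraries, and 10, 6 and 5 in the BM-derived libraries. Of 24 such markers 13 could be tested, and 5 fell and none rose, Ccr2 among them, and 1 fell with the fibroblast covariate. Mmp9 had 0 counts in each of the 3 iPSC-derived libraries, against 6.71, 2.56 and 3.62 CPM in the BM-derived libraries, and was at least 39.8-fold lower. Ly6c2, which marks classical monocytes, had 0 counts in the iPSC-derived libraries and 0.639, 0.16 and 0.468 CPM in the BM-derived ones, and was not called (adjusted p = 0.0921). The median log2 fold change of the 13 was -3.28, and -1.99 with 3 members that had a group at 0 counts set to their bound.

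Several chemokine receptors fell and the chemokines themselves split. Of 12 tested receptors 5 fell and none rose, and 3 fell without BM-derived replicate 2 or without iPSC-derived replicate 2, and 2 with the fibroblast covariate. Ccr1 had 12.1, 22.3 and 6.35 CPM in the iPSC-derived libraries, against 390.2, 326 and 319.6 CPM in the BM-derived libraries (log2 fold change -4.68 ± 0.45 SE, adjusted p = 3.9e-07). Ccr1 binds Ccl3 and Ccl5, and its groups lie far apart. The ligand gene Ccl3 rose, with 225, 81.8 and 288 CPM in the iPSC-derived libraries, against 62.9, 61.3 and 47.7 CPM in the BM-derived libraries (log2 fold change 1.79 ± 0.28 SE, adjusted p = 9.1e-05). Ccl4, a close relative of Ccl3, rose as well, with 111, 57.3 and 191 CPM in the iPSC-derived libraries, against 22.6, 21.1 and 14.6 CPM in the BM-derived libraries (log2 fold change 2.62 ± 0.39 SE, adjusted p = 5.8e-05). The lowest iPSC-derived value of both ligands was in replicate 2. Ccl6 had 50.5, 40.1 and 47.3 CPM in the iPSC-derived libraries, against 325, 264 and 260.4 CPM in the BM-derived libraries (log2 fold change -2.62 ± 0.22 SE, adjusted p = 3.1e-09). Ccl8 had 0, 0 and 0.781 CPM in the iPSC-derived libraries, against 21.2, 19 and 12.7 CPM in the BM-derived libraries (log2 fold change -5.85 ± 0.74 SE, adjusted p = 5.2e-06). Altogether 2 of 12 CC chemokines rose and 5 fell, and with the fibroblast covariate none rose and 2 fell. Cxcl16, a membrane-bound chemokine that also takes up oxidized lipid, had 126, 95 and 132 CPM in the iPSC-derived libraries, against 573, 589.8 and 558 CPM in the BM-derived libraries (log2 fold change -2.29 ± 0.22 SE, adjusted p = 4.0e-08). A single library moved the fold change by over 1.5 times, to a log2 value of -10.31 for Ccl8 without iPSC-derived replicate 3.

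Receptors of innate recognition were lower in larger numbers than they were higher. Of 17 C-type lectin receptors 8 fell and 1 rose (median -2.28, and -2.24 with a member at 0 counts in 1 group set to its bound), and 4 fell with the fibroblast covariate. Clec4e, the receptor Mincle for mycobacterial glycolipid, had 0, 1.24 and 1.17 CPM in the iPSC-derived libraries, against 103, 80.1 and 112 CPM in the BM-derived libraries (log2 fold change -6.87 ± 0.56 SE, adjusted p = 2.0e-08). Clec4n had 55, 28.3 and 71.4 CPM in the iPSC-derived libraries, against 406, 383 and 388 CPM in the BM-derived libraries (log2 fold change -2.92 ± 0.28 SE, adjusted p = 8.6e-08). Clec4a1 had 56.7, 47.6 and 45.4 CPM in the iPSC-derived libraries, against 363, 395 and 316 CPM in the BM-derived libraries (log2 fold change -2.84 ± 0.22 SE, adjusted p = 1.3e-09). Clec7a (Dectin-1), which binds fungal beta-glucan, was the member that rose, with 417, 514 and 188 CPM in the iPSC-derived libraries, against 52, 44.3 and 45.4 CPM in the BM-derived libraries (log2 fold change 2.98 ± 0.35 SE, adjusted p = 3.1e-06) and its lowest iPSC-derived value in replicate 3. Of 17 Toll-like receptor genes and their partners 7 fell and 2 rose (1 without BM-derived replicate 1 or with any 1 iPSC-derived replicate left out, and none without BM-derived replicate 2 or 3), and the number that fell was 3 without BM-derived replicate 1, BM-derived replicate 2 or iPSC-derived replicate 1, and 4 without iPSC-derived replicate 2 or 3. With the fibroblast covariate none of this list was called by edgeR, with 4 at an unadjusted p below 0.05. Tlr5 had 0 counts in each of the 3 iPSC-derived libraries, against 5.86, 11 and 9.7 CPM in the BM-derived libraries, and was at least 75-fold lower. Tlr7 rose, with 193, 323 and 208 CPM in the iPSC-derived libraries, against 167, 130.3 and 136 CPM in the BM-derived libraries (log2 fold change 0.74 ± 0.20 SE, adjusted p = 0.0116), while Tlr4, Tlr9 and Tlr13 were not called. Of these genes a call was lost for Tlr7 without iPSC-derived replicate 2 or BM-derived replicate 2 or 3.

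Inflammatory genes that NF-kB drives had 13 of 29 tested members lower and none higher (median -0.76), with 12 lower without iPSC-derived replicate 3 and 3 with the fibroblast covariate. Traf1 had 0 counts in each of the 3 iPSC-derived libraries, against 12.9, 14.7 and 10.8 CPM in the BM-derived libraries, and was at least 110.5-fold lower. Nos2 had 0 counts in each of the 3 iPSC-derived libraries, against 5.43, 4.32 and 4.91 CPM in the BM-derived libraries, and was at least 43.5-fold lower. Traf1 is an adaptor of TNF receptors and Nos2 makes nitric oxide in activated macrophages, and both were absent from the counts of all 3 iPSC-derived libraries. Cd40 had 3 counts over the 3 iPSC-derived libraries (0.375, 0 and 0 CPM), against 25.2, 31.2 and 37.1 CPM in the BM-derived libraries, which makes the BM-derived level 271 times the iPSC-derived one (95% interval 92.5 to 1319). Il1rn had 1.5, 2.11 and 3.32 CPM in the iPSC-derived libraries, against 33.9, 32.8 and 35.9 CPM in the BM-derived libraries (log2 fold change -3.86 ± 0.49 SE, adjusted p = 4.9e-06). Il1b, the pyrogenic cytokine, had 5.75, 2.73 and 3.42 CPM in the iPSC-derived libraries, against 115, 61.3 and 78.1 CPM in the BM-derived libraries (log2 fold change -4.42 ± 0.99 SE, adjusted p = 0.00499). Tnf was not called (32.6, 17.2 and 41.1 CPM in the iPSC-derived libraries, against 41.1, 40.6 and 27.4 CPM in the BM-derived libraries), and its groups overlap.

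The complement list had 9 of 22 members lower and 2 higher, and 2 lower and 1 higher with the fibroblast covariate. C3 had 33.8, 17 and 13.5 CPM in the iPSC-derived libraries, against 162, 164 and 172 CPM in the BM-derived libraries (log2 fold change -2.96 ± 0.34 SE, adjusted p = 2.0e-06). C1ra, a protease of the classical pathway, had 2.13, 0.496 and 4.1 CPM in the iPSC-derived libraries, against 24.1, 32.8 and 30.4 CPM in the BM-derived libraries (log2 fold change -3.66 ± 0.53 SE, adjusted p = 2.1e-05). C2 had 42.7, 49.6 and 22 CPM in the iPSC-derived libraries, against 0.213, 0 and 1.87 CPM in the BM-derived libraries (log2 fold change 5.67 ± 0.72 SE, adjusted p = 7.8e-06). C2, another protease of that pathway, was higher in iPSC-derived macrophages, while C1ra and the central component C3 were lower. C3ar1, the receptor for the C3a fragment, rose, with 2289, 2836 and 2440.2 CPM in the iPSC-derived libraries, against 1437, 1366 and 1365 CPM in the BM-derived libraries (log2 fold change 0.86 ± 0.13 SE, adjusted p = 5.8e-05). C1qa was not called, with 1892, 935 and 1731 CPM in the iPSC-derived libraries, against 2236, 2069 and 1862 CPM in the BM-derived libraries and overlapping groups. Leaving out 1 library moved fold changes by over 1.5 times, to log2 values of -4.45 for C1ra without iPSC-derived replicate 3 and 8.08 for C2 without BM-derived replicate 3.

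The microglial list gave a mixed picture. Of 30 tested homeostatic microglial genes 7 rose, 3 fell and 20 were not called (median 0.65, and 0.59 with 2 members at 0 counts in 1 group set to their bounds), and 5 rose and 3 fell without iPSC-derived replicate 3. With the fibroblast covariate 2 rose and 2 fell. Serpine2 had 827, 1588 and 751 CPM in the iPSC-derived libraries, against 13.4, 16.6 and 19.1 CPM in the BM-derived libraries (log2 fold change 6.01 ± 0.35 SE, adjusted p = 7.8e-11). Serpine2, a secreted protease inhibitor on chromosome 1, 79794197 to 79861180, was high in every iPSC-derived library and below 20 CPM in every BM-derived one. Golm1 had 93.4, 158 and 115 CPM in the iPSC-derived libraries, against 24, 29.4 and 34.3 CPM in the BM-derived libraries (log2 fold change 2.07 ± 0.25 SE, adjusted p = 1.8e-06). Crybb1 had 15.8, 5.46 and 8.79 CPM in the iPSC-derived libraries, against 0.532, 0 and 0.818 CPM in the BM-derived libraries (log2 fold change 4.37 ± 0.83 SE, adjusted p = 6.0e-04). The groups of these genes lie apart. Selplg, the ligand of P-selectin, fell (113, 126 and 129.8 CPM in the iPSC-derived libraries, against 324, 322 and 337 CPM in the BM-derived libraries, log2 fold change -1.41 ± 0.15 SE, adjusted p = 2.1e-07). Ctss had 2576, 1739 and 2706 CPM in the iPSC-derived libraries, against 6002, 5740 and 6073 CPM in the BM-derived libraries (log2 fold change -1.34 ± 0.14 SE, adjusted p = 2.9e-07). Csf1r, the receptor whose signal keeps microglia alive, had 2383, 3091 and 2287 CPM in the iPSC-derived libraries, against 4718, 4842 and 4753 CPM in the BM-derived libraries (log2 fold change -0.88 ± 0.18 SE, adjusted p = 0.00123). Without 1 library the fold change moved by over 1.5 times, to a log2 value of 5.02 for Crybb1 without BM-derived replicate 3.

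Several of the most used microglial markers were not called. P2ry12, a purinergic receptor, had 73.4, 109.8 and 64 CPM in the iPSC-derived libraries, against 68.7, 73.4 and 64.9 CPM in the BM-derived libraries, with overlapping groups (log2 fold change 0.26 ± 0.25 SE, adjusted p = 0.606). Tmem119 had 30, 37.3 and 40.7 CPM in the iPSC-derived libraries, against 52.6, 57.7 and 62.5 CPM in the BM-derived libraries (log2 fold change -0.68 ± 0.38 SE, adjusted p = 0.287), with the iPSC-derived values lower in all 3 libraries. Cx3cr1, the fractalkine receptor, had 1206, 1830.1 and 1063 CPM in the iPSC-derived libraries, against 670.5, 658 and 706 CPM in the BM-derived libraries (log2 fold change 1.01 ± 0.37 SE, adjusted p = 0.0832), with the iPSC-derived values higher in all 3 libraries. Fcrls was at 3045, 3389.7 and 2392 CPM in the iPSC-derived libraries, against 2719, 2952 and 2802 CPM in the BM-derived libraries (log2 fold change 0.06 ± 0.25 SE, adjusted p = 0.928) and overlaps between groups. Sall1, the transcription factor of microglial identity, was near the lower end of detection, with 1.25, 1.36 and 0.683 CPM in the iPSC-derived libraries, against 1.6, 1.6 and 2.34 CPM in the BM-derived libraries, and Siglech had 0.5, 0.124 and 0 CPM in the iPSC-derived libraries and 0 counts in the BM-derived ones.

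**Figure D4:**
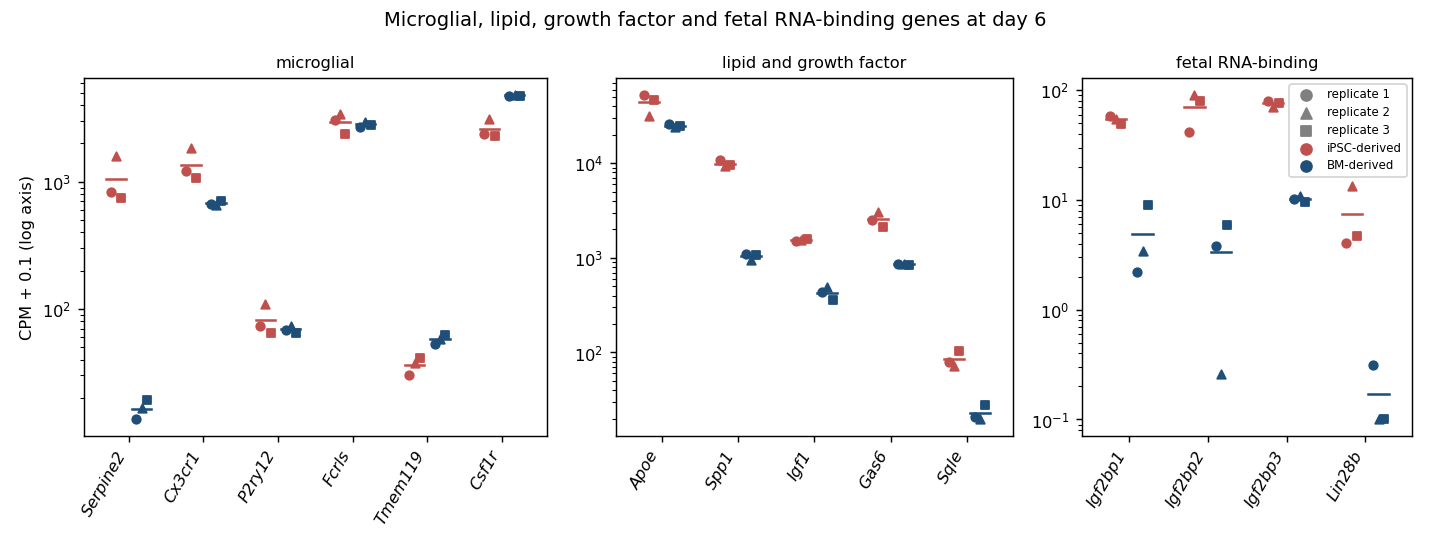
Points give CPM + 0.1 (log axis) of each gene in each day 6 library, iPSC-derived (red) left of BM-derived (blue), with a line at the mean of 3 and a shape for the replicate number. Serpine2, Spp1, Igf1 and the Igf2bp genes are separated between sources, whereas P2ry12 and Fcrls overlap.

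General macrophage genes moved in both directions, with 6 of 21 higher and 7 lower, and with none higher and 1 lower under the fibroblast covariate. Ptprc had 376, 367 and 399 CPM in the iPSC-derived libraries, against 980.5, 1024 and 896 CPM in the BM-derived libraries (log2 fold change -1.34 ± 0.15 SE, adjusted p = 6.7e-07). Ptprc encodes CD45, the pan-leukocyte phosphatase, and Itgam encodes the CD11b integrin chain, with 138, 120.3 and 140.1 CPM in the iPSC-derived libraries, against 371, 436 and 383 CPM in the BM-derived libraries (log2 fold change -1.58 ± 0.17 SE, adjusted p = 2.5e-07). Adgre1 had 1141, 1366 and 1429.5 CPM in the iPSC-derived libraries, against 2061, 2173 and 1999.7 CPM in the BM-derived libraries (log2 fold change -0.66 ± 0.14 SE, adjusted p = 0.00156). These 3 surface genes were lower in all 3 iPSC-derived libraries. Tyrobp, a short gene for the DAP12 adaptor, had 569, 583 and 2514 CPM in the iPSC-derived libraries, against 349, 324 and 263 CPM in the BM-derived libraries (log2 fold change 1.97 ± 0.50 SE, adjusted p = 0.0115), and its highest value by far was in iPSC-derived replicate 3, where short genes stand high. The number that rose was 2 without iPSC-derived replicate 3, 3 without BM-derived replicate 2 and 2 without BM-derived replicate 3. Laptm5, a lysosomal membrane protein, had 3469.9, 4190 and 2948 CPM in the iPSC-derived libraries, against 2452, 2423 and 2492 CPM in the BM-derived libraries (log2 fold change 0.53 ± 0.12 SE, adjusted p = 0.00266). The fold change moved by over 1.5 times without 1 library, to a log2 value of 0.89 for Tyrobp without iPSC-derived replicate 3. Of the genes above a call was lost for Tyrobp without iPSC-derived replicate 3 or BM-derived replicate 3.

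Markers of border-associated macrophages, which live in the meninges and around vessels, were lower in 6 of 16 cases and higher in 2, or in 1 with any 1 library left out. Under the fibroblast covariate 2 were lower and 1 higher. Cd163 had 0 counts in each of the 3 iPSC-derived libraries, against 11, 14.1 and 11.2 CPM in the BM-derived libraries, and was at least 104-fold lower. F13a1 had 4.13, 40.4 and 2.83 CPM in the iPSC-derived libraries, against 739, 714 and 578 CPM in the BM-derived libraries (log2 fold change -5.44 ± 0.84 SE, adjusted p = 1.9e-04). F13a1, a clotting factor subunit, was much higher in iPSC-derived replicate 2 than in the other two. Folr2, a folate receptor, had 16, 8.43 and 16.6 CPM in the iPSC-derived libraries, against 69.6, 49.6 and 62.8 CPM in the BM-derived libraries (log2 fold change -2.15 ± 0.27 SE, adjusted p = 3.2e-06). Gas6, which bridges dying cells to TAM receptors, rose, with 2488, 3069 and 2125 CPM in the iPSC-derived libraries, against 865, 865 and 831 CPM in the BM-derived libraries (log2 fold change 1.58 ± 0.20 SE, adjusted p = 2.4e-06). Mrc1, the mannose receptor, was not called, with 1062, 809 and 894 CPM in the iPSC-derived libraries, against 1041, 965 and 992 CPM in the BM-derived libraries and overlapping groups, and Lyve1 had 2.75, 0.496 and 0.391 CPM in the iPSC-derived libraries and 0 counts in the BM-derived ones (not called). A single library moved the fold change by over 1.5 times, to a log2 value of -7.62 for F13a1 without iPSC-derived replicate 2.

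Of 29 macrophage transcription factors 4 rose and 7 fell, and with the fibroblast covariate none rose and 1 fell. Mef2c had 630.2, 694 and 548 CPM in the iPSC-derived libraries, against 343, 306 and 329 CPM in the BM-derived libraries (log2 fold change 0.94 ± 0.14 SE, adjusted p = 2.9e-05). Mef2c is a factor of microglial enhancers, and its paralogue Mef2a fell, with 188, 206 and 134 CPM in the iPSC-derived libraries, against 286, 312 and 296 CPM in the BM-derived libraries (log2 fold change -0.76 ± 0.18 SE, adjusted p = 0.00573). Sall3 had 30.8, 24.4 and 15.2 CPM in the iPSC-derived libraries, against 1.6, 0.32 and 0.935 CPM in the BM-derived libraries (log2 fold change 4.55 ± 0.69 SE, adjusted p = 3.6e-05). Spic had 0 counts in each of the 3 iPSC-derived libraries, against 14.6, 13.8 and 9 CPM in the BM-derived libraries, and was at least 109-fold lower. Spic directs the iron-recycling macrophages of spleen and marrow. Spi1 (PU.1) and Irf8, which specify macrophages, were not called. Spi1 had 136, 216 and 350 CPM in the iPSC-derived libraries, against 338, 359 and 348 CPM in the BM-derived libraries. Irf8 had 528, 657 and 407 CPM in the iPSC-derived libraries, against 546, 481 and 507 CPM in the BM-derived libraries. The number that fell was 4 without BM-derived replicate 1 or iPSC-derived replicate 1. Without 1 library the fold change moved by over 1.5 times, to a log2 value of 5.13 for Sall3 without BM-derived replicate 1.

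Genes of the disease-associated microglial state, which is known from plaques and demyelinated lesions, were mostly higher. Of 24 tested members 14 rose and 4 fell (median 0.78), and 11 rose and 4 fell without iPSC-derived replicate 3, and 5 rose with the fibroblast covariate. Apoe, the lipid carrier, was among the highest genes of both groups, with 52956, 31729 and 46644 CPM in the iPSC-derived libraries, against 26104, 23874 and 24598 CPM in the BM-derived libraries (log2 fold change 0.82 ± 0.18 SE, adjusted p = 0.00271). Spp1 had 10890.4, 9308 and 9579 CPM in the iPSC-derived libraries, against 1102, 948 and 1061 CPM in the BM-derived libraries (log2 fold change 3.26 ± 0.42 SE, adjusted p = 1.5e-05). Spp1 encodes osteopontin, and its groups lie far apart. Igf1 had 1492, 1544 and 1585 CPM in the iPSC-derived libraries, against 436, 486 and 356 CPM in the BM-derived libraries (log2 fold change 1.85 ± 0.17 SE, adjusted p = 1.2e-08). Ctsb had 25652, 33488 and 22938 CPM in the iPSC-derived libraries, against 14475, 13928 and 14081 CPM in the BM-derived libraries (log2 fold change 0.95 ± 0.13 SE, adjusted p = 6.7e-06). Cst7, the cystatin that marks the same state, went the other way, with 1.75, 1.24 and 2.05 CPM in the iPSC-derived libraries, against 80.6, 61.3 and 58.6 CPM in the BM-derived libraries (log2 fold change -5.29 ± 0.36 SE, adjusted p = 1.1e-10). Ccl6, given above, went the same way as Cst7. Trem2, the receptor on which the later step of the state depends, was not called, with 1371, 767 and 1333 CPM in the iPSC-derived libraries, against 1077, 1048 and 967 CPM in the BM-derived libraries and overlapping groups.

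Lysosomal genes followed a similar split. Of 40 tested members 14 rose and 4 fell (median 0.37), with the same counts without iPSC-derived replicate 3 and 7 that rose with the fibroblast covariate. Ctsd had 35699, 46152 and 37724 CPM in the iPSC-derived libraries, against 17289, 18164 and 18918 CPM in the BM-derived libraries (log2 fold change 1.14 ± 0.15 SE, adjusted p = 6.6e-06). Ctsf had 96.8, 115 and 84.7 CPM in the iPSC-derived libraries, against 30.6, 30.2 and 22.2 CPM in the BM-derived libraries (log2 fold change 1.84 ± 0.19 SE, adjusted p = 1.6e-07). Lgmn had 4041, 4776 and 3958 CPM in the iPSC-derived libraries, against 2759, 2553 and 2406 CPM in the BM-derived libraries (log2 fold change 0.73 ± 0.12 SE, adjusted p = 1.6e-04). These proteases were higher in all 3 iPSC-derived libraries. Ctsh, an aminopeptidase cathepsin, fell, with 135, 136 and 76.4 CPM in the iPSC-derived libraries, against 936, 875 and 865 CPM in the BM-derived libraries (log2 fold change -2.95 ± 0.28 SE, adjusted p = 7.2e-08). Psap, the precursor of the saposins that help degrade sphingolipids, had 3457, 3876 and 3432 CPM in the iPSC-derived libraries, against 9634, 9273 and 9027 CPM in the BM-derived libraries (log2 fold change -1.38 ± 0.11 SE, adjusted p = 1.0e-09). Ctss and Ctsc, an activator of granule proteases, also fell, the second with 769.6, 928 and 523 CPM in the iPSC-derived libraries, against 1697, 1681 and 1662 CPM in the BM-derived libraries (log2 fold change -1.18 ± 0.24 SE, adjusted p = 0.00109). Ctss is also known for trimming the invariant chain of class II.

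Cholesterol synthesis genes rose together. Of 23 tested members of the pathway 16 rose and none fell (median 1.17), with 12 without iPSC-derived replicate 3 and 2 with the fibroblast covariate. Msmo1 had 174, 152 and 200.2 CPM in the iPSC-derived libraries, against 59.9, 58.5 and 54.7 CPM in the BM-derived libraries (log2 fold change 1.60 ± 0.18 SE, adjusted p = 4.5e-07). Sqle had 80.1, 71.3 and 104 CPM in the iPSC-derived libraries, against 20.8, 19.5 and 27.8 CPM in the BM-derived libraries (log2 fold change 1.91 ± 0.22 SE, adjusted p = 9.3e-07). Sqle oxidizes squalene in the first oxygen-requiring step of sterol synthesis. Cyp51 had 78.2, 99.1 and 104 CPM in the iPSC-derived libraries, against 25.8, 27.8 and 31.6 CPM in the BM-derived libraries (log2 fold change 1.72 ± 0.27 SE, adjusted p = 6.8e-05). Hmgcs1, which makes the precursor of mevalonate, had 168, 204 and 193 CPM in the iPSC-derived libraries, against 85.3, 59 and 88.5 CPM in the BM-derived libraries (log2 fold change 1.28 ± 0.20 SE, adjusted p = 5.6e-05). In none of these 4 did the groups overlap. Of 18 LXR target genes, which export cholesterol and remodel lipid, 6 fell and 1, Apoe, rose, and 2 rose without BM-derived replicate 3, iPSC-derived replicate 1 or iPSC-derived replicate 3. With the fibroblast covariate 2 fell and none rose. Pltp had 324, 307 and 398 CPM in the iPSC-derived libraries, against 2583, 2599 and 2212 CPM in the BM-derived libraries (log2 fold change -2.84 ± 0.24 SE, adjusted p = 5.8e-09). Smpdl3a had 4.13, 7.94 and 7.71 CPM in the iPSC-derived libraries, against 359, 374 and 317 CPM in the BM-derived libraries (log2 fold change -5.72 ± 0.22 SE, adjusted p = 7.1e-15). Abca1, the exporter of cholesterol, fell by less, with 920.2, 872 and 686 CPM in the iPSC-derived libraries, against 1468, 1251 and 1177 CPM in the BM-derived libraries (log2 fold change -0.65 ± 0.15 SE, adjusted p = 0.00454).

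Receptors and bridges for dying cells and modified lipid had 9 of 24 members higher and 4 lower, and 5 higher and 1 lower with the fibroblast covariate. Colec12 had 529.9, 637 and 638 CPM in the iPSC-derived libraries, against 11.6, 20.8 and 16.8 CPM in the BM-derived libraries (log2 fold change 5.21 ± 0.29 SE, adjusted p = 1.5e-11). Colec12 is a scavenger receptor with a collectin domain. Mfge8, which links phosphatidylserine to integrins, had 113, 124 and 113 CPM in the iPSC-derived libraries, against 47.3, 46.7 and 51 CPM in the BM-derived libraries (log2 fold change 1.27 ± 0.17 SE, adjusted p = 5.9e-06). Pros1 had 166, 175 and 177 CPM in the iPSC-derived libraries, against 67.7, 77.1 and 74.1 CPM in the BM-derived libraries (log2 fold change 1.24 ± 0.19 SE, adjusted p = 4.0e-05). These 3 rose with no overlap between groups. Cd5l, a secreted protein of tissue macrophages, fell, with 103, 136 and 95.2 CPM in the iPSC-derived libraries, against 1145, 991 and 1039 CPM in the BM-derived libraries (log2 fold change -3.25 ± 0.54 SE, adjusted p = 2.9e-04). Msr1, the class A scavenger receptor, fell, with 126, 140.5 and 186 CPM in the iPSC-derived libraries, against 424, 312 and 360.3 CPM in the BM-derived libraries (log2 fold change -1.28 ± 0.30 SE, adjusted p = 0.00548). Mertk, the receptor for Gas6 and Pros1, was not called (215, 207 and 279 CPM in the iPSC-derived libraries, against 337, 311 and 335 CPM in the BM-derived libraries, log2 fold change -0.49 ± 0.18 SE, adjusted p = 0.0695), but was called without iPSC-derived replicate 3 (log2 fold change -0.63, adjusted p = 0.0374).

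Growth factors and receptors differed gene by gene. Of 16 growth factor genes 6 rose and 1 fell, and 3 rose without BM-derived replicate 1, BM-derived replicate 3 or iPSC-derived replicate 2. Under the fibroblast covariate 2 rose and none fell. Vegfa had 1.25, 1.12 and 0.195 CPM in the iPSC-derived libraries, against 16, 10.6 and 12.6 CPM in the BM-derived libraries (log2 fold change -3.96 ± 0.52 SE, adjusted p = 5.9e-06). Flt1 had 48.2, 80.1 and 29.9 CPM in the iPSC-derived libraries, against 0, 0.48 and 1.29 CPM in the BM-derived libraries (log2 fold change 6.47 ± 1.00 SE, adjusted p = 1.2e-04). Flt1 is a receptor for Vegfa, so the ligand gene was lower and the receptor gene higher in the same libraries. Bulk samples do not show whether the same cells expressed both. Ccn1 had 51.3, 23.4 and 44.1 CPM in the iPSC-derived libraries, against 4.9, 6.88 and 6.2 CPM in the BM-derived libraries (log2 fold change 2.73 ± 0.49 SE, adjusted p = 3.4e-04). Of 24 cytokine and growth factor receptors 3 rose and 10 fell, and 1 rose with any 1 BM-derived replicate left out or without iPSC-derived replicate 1. The fibroblast covariate left 1 that rose and 2 that fell. Il2rg, the common gamma chain, had 43.2, 33.5 and 35.5 CPM in the iPSC-derived libraries, against 198, 231 and 213 CPM in the BM-derived libraries (log2 fold change -2.52 ± 0.19 SE, adjusted p = 1.0e-09). Il10ra had 169, 308 and 179 CPM in the iPSC-derived libraries, against 587, 604 and 569 CPM in the BM-derived libraries (log2 fold change -1.42 ± 0.23 SE, adjusted p = 1.2e-04). Moves of over 1.5 times in fold without 1 library were to log2 values of 5.81 for Flt1 without BM-derived replicate 1 and 7.97 for Flt1 without BM-derived replicate 3.

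Leukocyte integrins were lower, and matrix genes moved both ways. Of 16 integrin chains 8 fell and 2 rose, with 5 lower without BM-derived replicate 1 or iPSC-derived replicate 3, and with none lower and 1 higher under the fibroblast covariate. Itgb2 had 257, 284 and 371 CPM in the iPSC-derived libraries, against 775, 737 and 682 CPM in the BM-derived libraries (log2 fold change -1.27 ± 0.17 SE, adjusted p = 9.5e-06). Itgb7 had 1.13, 0.744 and 0 CPM in the iPSC-derived libraries, against 44.3, 36.3 and 37.1 CPM in the BM-derived libraries (log2 fold change -6.03 ± 0.81 SE, adjusted p = 2.1e-05). Itgb2 pairs with Itgam and Itgb7 with Itga4, and both fell with no overlap. Itgb3, a chain of a vitronectin receptor, rose, with 22.9, 20 and 12.3 CPM in the iPSC-derived libraries, against 0, 0 and 1.64 CPM in the BM-derived libraries (log2 fold change 4.97 ± 1.00 SE, adjusted p = 0.00173). Of 15 matrix proteases and inhibitors 7 fell and 3 rose, with 4 lower without BM-derived replicate 1, and 1 lower and 1 higher with the fibroblast covariate. Mmp14, a membrane-bound collagenase, had 30, 59.5 and 34.7 CPM in the iPSC-derived libraries, against 186, 243 and 249.6 CPM in the BM-derived libraries (log2 fold change -2.45 ± 0.45 SE, adjusted p = 7.1e-04). Adamts1 had 77.3, 78.7 and 105 CPM in the iPSC-derived libraries, against 0, 0.32 and 0.701 CPM in the BM-derived libraries (log2 fold change 7.98 ± 0.45 SE, adjusted p = 8.0e-12). Timp3 had 49.3, 14.8 and 67 CPM in the iPSC-derived libraries, against 4.26, 3.68 and 2.46 CPM in the BM-derived libraries (log2 fold change 3.65 ± 0.71 SE, adjusted p = 7.8e-04). Adamts1 cleaves proteoglycans and Timp3 inhibits such proteases, and fibroblasts also make both. The fibroblast marker level stated above was higher in the same libraries, and its part in these 2 values was not tested. Within the iPSC-derived libraries Timp3 was lowest in replicate 2, where the marker sum was lowest too, and Adamts1 was lowest in replicate 1. With 1 library left out, fold changes moved by over 1.5 times, to log2 values of -6.77 for Itgb7 without iPSC-derived replicate 1, -5.37 for Itgb7 without iPSC-derived replicate 3, 4.32 for Itgb3 without BM-derived replicate 1, 10.38 for Itgb3 without BM-derived replicate 3, 7.31 for Adamts1 without BM-derived replicate 1 and 9.25 for Adamts1 without BM-derived replicate 3.

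Genes known from fetal haematopoiesis, most of them for RNA-binding proteins, stood higher in iPSC-derived macrophages. Of 9 tested members 6 rose and none fell (median 2.91), with 6 also when any 1 library was left out and 2 with the fibroblast covariate. Igf2bp3 lies on chromosome 6, 49085223 to 49214957 and had 79.4, 70.8 and 77.1 CPM in the iPSC-derived libraries, against 10.1, 10.7 and 9.47 CPM in the BM-derived libraries (log2 fold change 2.91 ± 0.18 SE, adjusted p = 3.5e-11). Igf2bp1 had 58.8, 55.1 and 48.7 CPM in the iPSC-derived libraries, against 2.13, 3.36 and 9 CPM in the BM-derived libraries (log2 fold change 3.48 ± 0.38 SE, adjusted p = 3.1e-07). Igf2bp2 had 42, 91.1 and 79.3 CPM in the iPSC-derived libraries, against 3.73, 0.16 and 5.85 CPM in the BM-derived libraries (log2 fold change 4.38 ± 0.59 SE, adjusted p = 1.9e-05). These 3 genes encode proteins that bind and stabilize mRNAs, and none overlaps between groups. Lin28b had 4, 13.3 and 4.59 CPM in the iPSC-derived libraries, against 2 counts over the 3 BM-derived libraries, 85.6 times as much (95% interval 23.4 to 712). Lin28b blocks the maturation of let-7 miRNAs in fetal cells. Arid3a had 90.1, 83 and 44.1 CPM in the iPSC-derived libraries, against 16.4, 18.1 and 21.9 CPM in the BM-derived libraries (log2 fold change 1.94 ± 0.21 SE, adjusted p = 3.9e-07). Folds that moved by over 1.5 times without 1 library had log2 values of 4.33 for Igf2bp1 without BM-derived replicate 3 and 5.04 for Igf2bp2 without BM-derived replicate 3.

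Of 22 tested imprinted genes 6 rose and 1 fell, and 1 rose and 1 fell with the fibroblast covariate. Sgce had 70.4, 77.5 and 63.7 CPM in the iPSC-derived libraries, against 2.98, 0.32 and 3.62 CPM in the BM-derived libraries (log2 fold change 4.86 ± 0.45 SE, adjusted p = 4.0e-08). Plagl1 had 66.3, 38.3 and 89.1 CPM in the iPSC-derived libraries, against 2.66, 1.28 and 4.44 CPM in the BM-derived libraries (log2 fold change 4.50 ± 0.75 SE, adjusted p = 1.9e-04). H19 had 75.2, 55.8 and 109.6 CPM in the iPSC-derived libraries, against 17.2, 11.7 and 20.3 CPM in the BM-derived libraries (log2 fold change 2.28 ± 0.53 SE, adjusted p = 0.00496). Sgce and Plagl1 are paternally expressed and H19 maternally, and all 3 were higher in each iPSC-derived library; H19 had the opposite sign (-1.17) with the fibroblast covariate. Igf2r, the maternally expressed receptor that clears Igf2, fell, with 2, 1.24 and 6.25 CPM in the iPSC-derived libraries, against 46.9, 64 and 45.4 CPM in the BM-derived libraries (log2 fold change -3.99 ± 0.66 SE, adjusted p = 2.2e-04). Fibroblasts also express H19, Plagl1 and Sgce, and their part in these values was not tested. Of 36 Hox cluster and cofactor genes 6 could be tested and 1 was called, Meis3, with 95.4, 108 and 66 CPM in the iPSC-derived libraries, against 14.3, 14.9 and 15.7 CPM in the BM-derived libraries (log2 fold change 2.58 ± 0.22 SE, adjusted p = 4.0e-09). Pluripotency genes were near 0 in both groups, with a summed level of 12 genes of 8.26, 6.7 and 7.62 CPM in iPSC-derived and 5.22, 4.0 and 5.26 CPM in BM-derived libraries, and none of 5 tested was called by the edgeR fit to all libraries or by DESeq2, with 0 at an unadjusted p below 0.05. Without BM-derived replicate 1 the pluripotency factor gene Pou5f1 was called (log2 fold change 4.57, adjusted p = 0.0477). The fold change moved by over 1.5 times without 1 library, to a log2 value of -4.99 for Igf2r without iPSC-derived replicate 3.

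Y-linked genes were present in all 6 libraries. Ddx3y had 42.5, 60.4 and 34 CPM in the iPSC-derived libraries, against 96.9, 67.8 and 125 CPM in the BM-derived libraries (log2 fold change -1.08 ± 0.29 SE, adjusted p = 0.0112). Eif2s3y had 43.3, 55.4 and 34.6 CPM in the iPSC-derived libraries, against 102, 61.3 and 112 CPM in the BM-derived libraries (log2 fold change -1.05 ± 0.34 SE, adjusted p = 0.0454). Ddx3y encodes an RNA helicase and Eif2s3y a translation initiation factor subunit, and their groups do not overlap. Xist, which silences an X chromosome in females, had 0 counts in all 6 libraries. Nnt, a mitochondrial transhydrogenase that is disrupted in the C57BL/6J strain, had 107, 119.7 and 129.5 CPM in the iPSC-derived libraries, against 84.8, 72.9 and 76.1 CPM in the BM-derived libraries (log2 fold change 0.61 ± 0.17 SE, adjusted p = 0.0198). The other 2 Y-linked genes tested, Kdm5d and Uty, were not called, though Kdm5d was without iPSC-derived replicate 1 (log2 fold change -1.50, adjusted p = 0.0324). Calls lost among these genes with 1 library left out were Ddx3y without iPSC-derived replicate 3 or BM-derived replicate 3, Eif2s3y without iPSC-derived replicate 1 or 3 or BM-derived replicate 1 or 3 and Nnt without iPSC-derived replicate 3 or BM-derived replicate 2 or 3.

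Glycolysis and hypoxia genes were lower in iPSC-derived macrophages, 17 of 30 against 1 higher (median -0.66), with 12 lower without iPSC-derived replicate 3 and 11 without BM-derived replicate 3. The fit with the fibroblast covariate left 1 lower and none higher. Tpi1 had 408, 348 and 352 CPM in the iPSC-derived libraries, against 818, 682 and 801 CPM in the BM-derived libraries (log2 fold change -1.05 ± 0.14 SE, adjusted p = 8.7e-06). Pfkfb3 had 53.5, 47.1 and 45.7 CPM in the iPSC-derived libraries, against 116, 121 and 119 CPM in the BM-derived libraries (log2 fold change -1.28 ± 0.17 SE, adjusted p = 7.8e-06). Pfkfb3 makes the activator of the committing step of glycolysis. P4ha1, a collagen prolyl hydroxylase induced by hypoxia, had 154, 190.5 and 163 CPM in the iPSC-derived libraries, against 313, 276 and 296 CPM in the BM-derived libraries (log2 fold change -0.80 ± 0.12 SE, adjusted p = 1.8e-05). Of 22 genes of the ATF4 and amino acid response 6 rose and 1 fell, with 3 higher without BM-derived replicate 1 or BM-derived replicate 2 and 1 higher and none lower with the fibroblast covariate. None fell without BM-derived replicate 1 or iPSC-derived replicate 2, and 2 fell without iPSC-derived replicate 3. Psat1, of serine synthesis, had 142, 162 and 112 CPM in the iPSC-derived libraries, against 24.6, 14.6 and 21.5 CPM in the BM-derived libraries (log2 fold change 2.77 ± 0.27 SE, adjusted p = 7.5e-08), and Asns, which makes asparagine, had 20.9, 23.1 and 21.1 CPM in the iPSC-derived libraries, against 6.17, 6.72 and 6.31 CPM in the BM-derived libraries (log2 fold change 1.76 ± 0.40 SE, adjusted p = 0.00392). Of 20 unfolded protein response genes 7 fell and 1 rose, and without BM-derived replicate 1, iPSC-derived replicate 1 or iPSC-derived replicate 3 the number that fell was 3, 4 and 3. Under the fibroblast covariate none fell and 1 rose. Ern1, a sensor of misfolded protein, was one of those that fell, with 11.5, 20.8 and 9.08 CPM in the iPSC-derived libraries, against 40.1, 27.2 and 48.3 CPM in the BM-derived libraries (log2 fold change -1.49 ± 0.33 SE, adjusted p = 0.00242).

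Few cell cycle genes were called. Of 28 DNA replication genes 1 fell and none rose, and of 30 mitosis genes 1 fell and none rose (medians -0.24 and -0.48). Neither list had a call without BM-derived replicate 2 or iPSC-derived replicate 2, and the mitosis call also went without BM-derived replicate 1 or 3 or iPSC-derived replicate 1. The number of mitosis genes that fell was 6 with no filter on low counts, 3 with only the groups compared and none with the fibroblast covariate. The summed level of the mitosis genes was 422.2, 390.1 and 603.5 CPM in iPSC-derived and 649.7, 558.5 and 852.5 CPM in BM-derived macrophages, and the 2 ranges overlap. Mki67, expressed in cycling cells, had 36.8, 25.8 and 41.9 CPM in the iPSC-derived libraries, against 45.9, 39.7 and 68 CPM in the BM-derived libraries (log2 fold change -0.56 ± 0.34 SE, adjusted p = 0.336).

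Ribosomal protein and respiratory chain counts depended on single libraries. Of 30 ribosomal protein genes 9 rose, and none did without iPSC-derived replicate 3, 5 without BM-derived replicate 1, 2 without BM-derived replicate 2, 1 without BM-derived replicate 3 and 24 without iPSC-derived replicate 2. Of 31 respiratory chain genes 11 rose, and 1 did without iPSC-derived replicate 3, 18 without iPSC-derived replicate 2, and 4, 5 and 2 without BM-derived replicates 1, 2 and 3. With the fibroblast covariate edgeR called no member of either list, with 0 ribosomal protein and 1 respiratory chain genes at an unadjusted p below 0.05. The 78 tested genes with under 1000 bases of exon and a mean log2 CPM above 5 had a median log2 fold change of 0.88, and 0.22 without iPSC-derived replicate 3. Mitochondrially encoded mt-Nd4, a complex I subunit, had 1924, 1785 and 1285 CPM in the iPSC-derived libraries, against 808, 958 and 886 CPM in the BM-derived libraries (log2 fold change 0.91 ± 0.20 SE, adjusted p = 0.00218).

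Markers of other cell types were counted because the macrophages had been cultured with other cells. Of 13 tested fibroblast and mural markers 8 rose and none fell (median 3.34), with 5 higher without iPSC-derived replicate 3, BM-derived replicate 1 or BM-derived replicate 2. Acta2, smooth muscle actin, had 119, 25.2 and 64 CPM in the iPSC-derived libraries, against 3.94, 3.36 and 9.12 CPM in the BM-derived libraries (log2 fold change 3.65 ± 0.72 SE, adjusted p = 0.00126). Col1a2 had 82.8, 60.4 and 149.7 CPM in the iPSC-derived libraries, against 5.86, 6.08 and 8.42 CPM in the BM-derived libraries (log2 fold change 3.84 ± 0.74 SE, adjusted p = 0.00121). iPSC-derived replicate 2 was the lowest of its group for both. The same markers summed to 59.0 to 85.3 CPM in iPSC-derived macrophages at day 0 and 62.4 to 144.8 CPM at day 3. At day 12 they summed to 320.8 to 557.9 CPM. The iPSC-derived day 6 values thus lie above those of days 0 and 3 and overlap those of day 12. BM-derived sums were 4.82 to 21.1 CPM at day 0, 27.3 to 37.1 CPM at day 3 and 137.6 to 225.6 CPM at day 12. The iPSC-derived sums lay above them on each of these days, also at day 0 without co-culture. Of 11 oligodendrocyte markers 4 rose, and 1 did without iPSC-derived replicate 2 or with any 1 BM-derived replicate left out. That 1 was Cspg4, which is also counted among the 8 fibroblast and mural markers that rose. None of 16 neuronal markers was called by the edgeR fit to all libraries or by DESeq2, with 2 at an unadjusted p below 0.05, and 1 was with only the groups compared. Of 15 astrocyte and progenitor markers 1, Nes, rose (42, 29.4 and 32.2 CPM in the iPSC-derived libraries, against 4.9, 5.28 and 5.85 CPM in the BM-derived libraries, log2 fold change 2.69 ± 0.40 SE, adjusted p = 2.9e-05). A single library moved the fold change by over 1.5 times, to a log2 value of 4.24 for Acta2 without BM-derived replicate 3.

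The remaining gene lists held fewer calls, and many of these depended on 1 library. Of 20 genes of the NRF2, glutathione and pentose phosphate response 4 fell and 1 rose. The number that fell was 1 without BM-derived replicate 1 and 2 without BM-derived replicate 2 or iPSC-derived replicate 1 or 2, and the number that rose was 0 without BM-derived replicate 3 and 2 without iPSC-derived replicate 2. Of 22 immediate early genes 4 fell and none rose, with 1 lower without BM-derived replicate 2 or iPSC-derived replicate 3 and 2 lower without BM-derived replicate 1 or 3 or iPSC-derived replicate 2. Of 16 purine receptors 4 fell and none rose.

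Iron and heme genes had 3 of 18 higher and 4 lower, with 1 higher when any 1 BM-derived replicate or iPSC-derived replicate 1 was left out. TGF-beta and SMAD genes had 2 of 24 in each direction, with none lower without BM-derived replicate 1 or iPSC-derived replicate 2 and 1 lower with any other 1 library left out. Among 9 CXC chemokines 1 rose and 2 fell, and among 6 Fc gamma receptor genes 1 rose and 3 fell. The single increase of both lists was lost with any 1 BM-derived replicate left out, and that of the CXC list also without iPSC-derived replicate 2. Of 9 tested dendritic cell markers 1 rose and 3 fell, with 1 lower without BM-derived replicate 2 or iPSC-derived replicate 3. Of 8 endothelial markers 1 rose. Of 8 haematopoietic progenitor markers 1 rose, and none did without BM-derived replicate 1 or 2 or iPSC-derived replicate 2 or 3. With the fibroblast covariate 2 iron and heme genes and 1 CXC chemokine fell, and no other call was made in these lists, from the NRF2 response to the progenitor markers.

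The largest increases included genes that mesenchymal cells are known to express. Col5a2 had 40, 4.71 and 52.5 CPM in the iPSC-derived libraries, against 2 counts over the 3 BM-derived libraries, 412 times as much (95% interval 114 to 3409). Msln had 20.3, 2.23 and 38.4 CPM in the iPSC-derived libraries, against 1 count over the 3 BM-derived libraries, 527 times as much (95% interval 94.3 to 20861). Col5a2 is a fibrillar collagen chain and Msln a surface protein of mesothelium. Both were lowest in iPSC-derived replicate 2 and highest in replicate 3, which is the order of the summed fibroblast markers, of which Col5a2 is one. It is also the order of the gap between short and long genes, -0.43, 0.24 and 1.51 log2 units in iPSC-derived replicates 2, 1 and 3. The order therefore cannot tell these apart, and its cause was not tested. The call of Msln was lost with any 1 BM-derived replicate left out (adjusted p = 0.107, 0.0827 and 0.0889 without BM-derived replicates 1, 2 and 3), and its sign turned with the fibroblast covariate (-3.13). Ccdc80 had 29.4, 18 and 42.6 CPM in the iPSC-derived libraries, against 0, 0.48 and 1.29 CPM in the BM-derived libraries (log2 fold change 5.65 ± 1.08 SE, adjusted p = 6.7e-04). Cpne8 had 22.8, 18.5 and 34.1 CPM in the iPSC-derived libraries, against 0.426, 0 and 0.351 CPM in the BM-derived libraries (log2 fold change 6.40 ± 0.73 SE, adjusted p = 1.1e-06). Ccdc80 and Cpne8 had the same order. In contrast, Tln2, Mxra8 and Dkk2 were highest in replicate 2. Tln2 had 180.4, 211 and 151 CPM in the iPSC-derived libraries, against 2.55, 1.76 and 2.22 CPM in the BM-derived libraries (log2 fold change 6.34 ± 0.45 SE, adjusted p = 1.3e-09). Mxra8 had 88.9, 137 and 69.7 CPM in the iPSC-derived libraries, against 0.426, 1.92 and 1.75 CPM in the BM-derived libraries (log2 fold change 6.22 ± 0.78 SE, adjusted p = 1.1e-05). Tln2 links integrins to actin and Mxra8 is a surface protein used by alphaviruses. Dkk2 had 22.3, 37 and 13.9 CPM in the iPSC-derived libraries, against 0.213, 0.64 and 0.351 CPM in the BM-derived libraries (log2 fold change 5.95 ± 1.06 SE, adjusted p = 3.9e-04). Dkk2 modulates Wnt signals. Fgf13 had 47.9, 60.4 and 65.5 CPM in the iPSC-derived libraries, against 2.02, 1.28 and 0.935 CPM in the BM-derived libraries (log2 fold change 5.33 ± 0.52 SE, adjusted p = 5.5e-08). The remaining genes of the 15 largest increases were Asb10, Pkp2, Flnc, C2, Adamts1, Flt1 and Serpine2, with log2 fold changes from 5.39 (Flnc) to 7.98 (Adamts1). Moves of over 1.5 times in fold without 1 library were to log2 values of 5.02 for Ccdc80 without BM-derived replicate 1 and 7.11 for Ccdc80 without BM-derived replicate 3.

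The largest decreases included several genes with 0 counts in iPSC-derived macrophages. Clec2i had 0 counts in each of the 3 iPSC-derived libraries, against 56.3, 74 and 51 CPM in the BM-derived libraries, and was at least 517-fold lower. Mefv had 0 counts in each of the 3 iPSC-derived libraries, against 58.4, 51.5 and 35 CPM in the BM-derived libraries, and was at least 424-fold lower. Clec2i is a lectin-like ligand of natural killer receptors and Mefv encodes pyrin, and neither had a count in any iPSC-derived library. Klra2 had 0 counts in each of the 3 iPSC-derived libraries, against 27.8, 30.1 and 23.4 CPM in the BM-derived libraries, and was at least 235-fold lower. Pilrb2 had 0 counts in each of the 3 iPSC-derived libraries, against 31.2, 24 and 20.3 CPM in the BM-derived libraries, and was at least 224-fold lower. Sirpb1b had 0 counts in each of the 3 iPSC-derived libraries, against 28.4, 22.6 and 24.6 CPM in the BM-derived libraries, and was at least 224-fold lower. Klra2, Pilrb2 and the Sirpb1 genes belong to paired receptor families with close copies, so their reads may be split between copies. Sirpb1c had 1 count over the 3 iPSC-derived libraries (0, 0 and 0.0976 CPM), against 54.3, 48.3 and 47.9 CPM in the BM-derived libraries, which makes the BM-derived level 1328 times the iPSC-derived one (95% interval 238 to 52497). Slc28a2 had 2 counts over the 3 iPSC-derived libraries (0.125, 0 and 0.0976 CPM), against 33.9, 22.7 and 26.8 CPM in the BM-derived libraries, which makes the BM-derived level 374 times the iPSC-derived one (95% interval 103 to 3098). Slc28a2 takes up nucleosides. Nxpe5 had 0.125, 0 and 2.83 CPM in the iPSC-derived libraries, against 232, 245 and 226 CPM in the BM-derived libraries (log2 fold change -7.72 ± 0.84 SE, adjusted p = 5.3e-06). Vill had 0, 0 and 0.586 CPM in the iPSC-derived libraries, against 44.9, 35 and 44.5 CPM in the BM-derived libraries (log2 fold change -7.45 ± 0.64 SE, adjusted p = 7.8e-09). Napsa had 0, 0.496 and 0 CPM in the iPSC-derived libraries, against 19.6, 24.1 and 18.6 CPM in the BM-derived libraries (log2 fold change -6.95 ± 0.96 SE, adjusted p = 5.0e-05). Gpr141 had 1 count over the 3 iPSC-derived libraries (0, 0 and 0.0976 CPM), against 26.2, 21.6 and 20.2 CPM in the BM-derived libraries, which makes the BM-derived level 602 times the iPSC-derived one (95% interval 108 to 23823). Gpr141 is an orphan receptor. With 1 library left out, fold changes moved by over 1.5 times, to log2 values of -11.58 for Nxpe5 without iPSC-derived replicate 3, -11.54 for Vill without iPSC-derived replicate 3, -10.56 for Napsa without iPSC-derived replicate 2 and -6.30 for Napsa without iPSC-derived replicate 3.

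The source difference was also set beside the other sampled days, since the same sources were compared there. Genes called between iPSC-derived and BM-derived macrophages numbered 5401 (36.0%) at day 0 without co-culture, 2679 (17.9%) at day 3, 1982 at day 6 and 1465 (9.77%) at day 12. The shares called higher and lower were 18.9% and 17.1% at day 0, 8.94% and 8.92% at day 3, and 5.03% and 4.74% at day 12. Of the 1048 genes higher at day 6, 661 were also higher at day 3 and 430 at day 12, which is 49.3% of the higher genes of day 3 and 57.0% of those of day 12. All 4 days shared 261 higher and 233 lower genes. For the 934 lower genes the overlap was 672 with day 3 and 444 with day 12, or 50.2% and 62.4% of those days' lower genes. Tests of the difference itself, which share the day 6 libraries, called 2951 genes between days 6 and 0 (19.7%), 55 between days 6 and 3 (0.367%) and 35 between days 6 and 12 (0.233%). The positive and negative shares were 8.62% and 11.1% against day 0, 0.113% and 0.253% against day 3, and 0.04% and 0.193% against day 12.

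MHC class II genes were lower in iPSC-derived macrophages on every day, with medians of -2.88, -5.15, -4.51 and -3.42 at days 0, 3, 6 and 12. The fetal RNA-binding genes were higher on every day, with medians of 3.55, 3.04, 2.91 and 2.57. Type I interferon genes were higher at day 0, with 27 of 30 called higher and none lower, and lower in co-culture, with 12, 15 and 7 called lower at days 3, 6 and 12. All 30 passed the test of the difference between day 6 and day 0. Mitosis genes likewise were all 30 higher at day 0, and all 30 passed the same test, while 1, Cenpe, differed between days 6 and 3. Glycolysis and hypoxia genes had 20 of 30 higher at day 0 and 17 lower at day 6, and 21 passed the test between these days. Day 0 lacks the co-culture, so day and co-culture cannot be told apart in these 3 results.

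**Figure D5:**
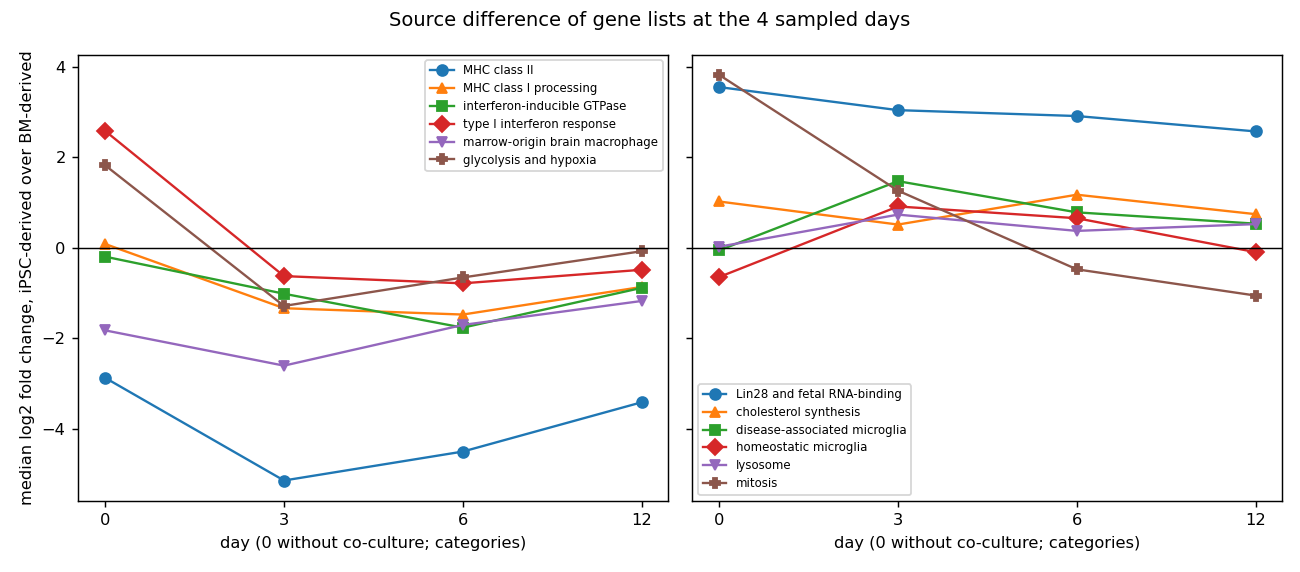
Lines join the median log2 fold change, iPSC-derived over BM-derived, of 12 gene lists at days 0, 3, 6 and 12, with days as evenly spaced categories and no error drawn. MHC class II stays between -5.15 and -2.88 and the fetal RNA-binding list between 2.57 and 3.55, while the type I interferon list stands at 2.58 at day 0 and -0.79 at day 6, and mitosis at 3.82 and -0.48.

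Between day 6 and the neighbouring co-culture days few genes were called for a change in their source difference. At an unadjusted p below 0.05 in the same edgeR test there were 1356 genes against day 3 and 1687 against day 12. Few calls therefore do not show that few genes changed. Sod2, the mitochondrial superoxide dismutase, averaged 71.8 CPM in iPSC-derived and 94.8 CPM in BM-derived macrophages at day 6, and 67.3 CPM in iPSC-derived and 352 CPM in BM-derived macrophages at day 3 (difference of the log2 fold changes 1.99 ± 0.25 SE, adjusted p = 6.7e-04). Il7r, the interleukin 7 receptor chain, averaged 4.9 CPM in iPSC-derived and 45.1 CPM in BM-derived macrophages at day 6, and 37.6 CPM in iPSC-derived and 37.7 CPM in BM-derived macrophages at day 3 (-3.17 ± 0.54 SE, adjusted p = 0.0104). The Il7r means of the 2 sources were nearly the same at day 3 and differed at day 6. Against day 12, H2-K1, H2-T23 and H2-M3 had a source difference that was more negative at day 6. H2-K1 averaged 936 CPM in iPSC-derived and 4301 CPM in BM-derived macrophages at day 6, and 842 CPM in iPSC-derived and 2270.2 CPM in BM-derived macrophages at day 12 (-0.77 ± 0.16 SE, adjusted p = 0.0344). Clec4n, the receptor Dectin-2, averaged 51.6 CPM in iPSC-derived and 392 CPM in BM-derived macrophages at day 6, and 172 CPM in iPSC-derived and 212 CPM in BM-derived macrophages at day 12 (-2.62 ± 0.38 SE, adjusted p = 0.00194). With 1 library left out the number called ran from 16 to 98 for the difference from day 3 and from 6 to 165 for that from day 12, so single genes of these 2 tests depend on the libraries used.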

How the data were processed

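RNA from 24 mouse macrophage samples was made into SMART-seq v2 libraries from 2 ng of total RNA and sequenced as paired reads of 51 bases, per the labels' protocols. Reads were aligned with STAR (version not given in the sources used here) to mm10 (GRCm38), per the submitters' processing notes, and the authors counted fragments over exons per gene with featureCounts 1.5.0-p1 and GENCODE vM9, with no strand setting and no option for multi-mapping reads, per the file headers. The deposited values are raw counts per gene. Near-identical genes and overlapping or antisense genes can therefore lose or share reads. No ERCC row was among the 47643 genes. IDs without a gene symbol held 0.0635% of counts.

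Samples were grouped by their titles. Genes were kept by edgeR's filterByExpr (minimum count 10, minimum total 15), which left 15000, and edgeR 4.0.16 in R 4.3.3 fitted all 24 libraries in 8 groups with TMM scaling and robust quasi-likelihood dispersion. Contrasts were iPSC-derived minus BM-derived at day 6 and its difference from the same contrast at days 0, 3 and 12, each with Benjamini-Hochberg adjustment (two-sided) and a threshold of 0.05. Depth was 5839316 to 11805478 counts per library. Labels do not say that replicates were separate animals, so p-values measure the spread between these samples. For a group at 0 counts the fold is a bound at 3 counts over the group, and for 1 to 3 counts it is a ratio with an exact 95% interval for counts (Clopper-Pearson); both cover counting error only. On data simulated for the day 6 contrast with 14418 genes, 49% of 2-fold and 89% of 4-fold changes were recovered and 2.13% of calls were false. The simulation changed 100 genes per fold, none of the lowest levels, and gave all groups the same dispersion for a gene. The real data held more calls and a wider spread among iPSC-derived replicates, so these rates need not hold for them.

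Members and lists (53 lists and 41 single genes) were chosen with earlier results of these data known. Genes named are the 15 largest changes in each direction with non-overlapping groups and at least 20 CPM, the single genes, up to 4 called members of each list in each direction, and the 4 largest differences from each other day. Some genes under this rule are not reported here. B2m, Isg15, Ifit1, Kdm5d and Uty, which were not called, were named after their values were seen. Upstream windows are RefSeq's, GRCm38.p6. Alternatives were DESeq2 1.42.0, other scaling, other filters, fewer libraries, a replicate block, covariates and each replicate left out.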

Additional observations from a re-analysis of the deposited data

Results flagged for a closer look

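For the genes below the source difference, iPSC-derived over BM-derived on the log2 scale, was not the same at day 6 as on another day, by the test of the difference between days in edgeR's fit over 15000 genes. Values are means of 3 libraries, and the number in brackets is the day 6 difference minus that of the other day. Groups of 3 libraries were not tested for outlying samples.

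Against day 0, which lacks the co-culture, 4 genes with a positive value were named by the rule. Bmp2 averaged 29.3 CPM in iPSC-derived and 7.29 CPM in BM-derived macrophages at day 6, and 0.073 CPM in iPSC-derived and 13.8 CPM in BM-derived macrophages at day 0 (9.32 ± 0.99 SE, adjusted p = 3.4e-07). Slc9a7 averaged 3.31 CPM in iPSC-derived and 15.7 CPM in BM-derived macrophages at day 6, and 0 CPM in iPSC-derived and 26.2 CPM in BM-derived macrophages at day 0 (8.63 ± 1.4 SE, adjusted p = 9.2e-05). Dkk2 averaged 24.4 CPM in iPSC-derived and 0.401 CPM in BM-derived macrophages at day 6, and 0.867 CPM in iPSC-derived and 2.26 CPM in BM-derived macrophages at day 0 (7.33 ± 1.42 SE, adjusted p = 6.3e-04). Nr4a1 averaged 19.3 CPM in iPSC-derived and 9.86 CPM in BM-derived macrophages at day 6, and 0.364 CPM in iPSC-derived and 27.8 CPM in BM-derived macrophages at day 0 (7.17 ± 0.89 SE, adjusted p = 2.8e-06). Bmp2 is a secreted signal of the TGF-beta family and Nr4a1 an orphan nuclear receptor, and both had the lower mean in iPSC-derived macrophages at day 0 and the higher mean there at day 6. The value of Slc9a7 depends on the prior count, since its iPSC-derived libraries had 0 counts at day 0. Negative values were as follows. Aqp9 averaged 0 CPM in iPSC-derived and 0.861 CPM in BM-derived macrophages at day 6, and 38 CPM in iPSC-derived and 0 CPM in BM-derived macrophages at day 0 (-17.42 ± 2.44 SE, adjusted p = 5.5e-05). Pimreg averaged 7.81 CPM in iPSC-derived and 7.88 CPM in BM-derived macrophages at day 6, and 28.5 CPM in iPSC-derived and 0 CPM in BM-derived macrophages at day 0 (-11.03 ± 1.59 SE, adjusted p = 3.3e-05). Marco averaged 4.22 CPM in iPSC-derived and 5.51 CPM in BM-derived macrophages at day 6, and 21.3 CPM in iPSC-derived and 0 CPM in BM-derived macrophages at day 0 (-10.95 ± 1.81 SE, adjusted p = 2.2e-04). Acod1 averaged 2.74 CPM in iPSC-derived and 9.12 CPM in BM-derived macrophages at day 6, and 1148 CPM in iPSC-derived and 2.95 CPM in BM-derived macrophages at day 0 (-10.38 ± 0.84 SE, adjusted p = 5.9e-08). Aqp9, Pimreg and Marco had 0 counts in BM-derived macrophages at day 0, and Aqp9 also in iPSC-derived macrophages at day 6, so their fitted values depend on the prior count too. Acod1 makes itaconate in activated macrophages.

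Against day 3, the positive values were these. Col5a2 averaged 32.4 CPM in iPSC-derived and 0.071 CPM in BM-derived macrophages at day 6, and 0.396 CPM in iPSC-derived and 1.31 CPM in BM-derived macrophages at day 3 (10.16 ± 1.85 SE, adjusted p = 0.0144). Rasgrp4 averaged 1.35 CPM in iPSC-derived and 11.7 CPM in BM-derived macrophages at day 6, and 0.115 CPM in iPSC-derived and 23.6 CPM in BM-derived macrophages at day 3 (4.48 ± 0.98 SE, adjusted p = 0.0422). Lbh averaged 16 CPM in iPSC-derived and 23 CPM in BM-derived macrophages at day 6, and 5.74 CPM in iPSC-derived and 35.3 CPM in BM-derived macrophages at day 3 (2.09 ± 0.32 SE, adjusted p = 0.00524). Sod2 averaged 71.8 CPM in iPSC-derived and 94.8 CPM in BM-derived macrophages at day 6, and 67.3 CPM in iPSC-derived and 352 CPM in BM-derived macrophages at day 3 (1.99 ± 0.25 SE, adjusted p = 6.7e-04). Col5a2 is one of the fibroblast markers, whose summed level in iPSC-derived macrophages was 439.8 to 971.9 CPM at day 6 and 62.4 to 144.8 CPM at day 3. Negative values followed. Bmp2 averaged 29.3 CPM in iPSC-derived and 7.29 CPM in BM-derived macrophages at day 6, and 32.7 CPM in iPSC-derived and 0.626 CPM in BM-derived macrophages at day 3 (-3.71 ± 0.79 SE, adjusted p = 0.0393). Rtn4rl1 averaged 92.9 CPM in iPSC-derived and 8.04 CPM in BM-derived macrophages at day 6, and 67.6 CPM in iPSC-derived and 0.534 CPM in BM-derived macrophages at day 3 (-3.42 ± 0.69 SE, adjusted p = 0.0328). Il7r averaged 4.9 CPM in iPSC-derived and 45.1 CPM in BM-derived macrophages at day 6, and 37.6 CPM in iPSC-derived and 37.7 CPM in BM-derived macrophages at day 3 (-3.17 ± 0.54 SE, adjusted p = 0.0104). Cenpe averaged 13.3 CPM in iPSC-derived and 18.6 CPM in BM-derived macrophages at day 6, and 20.7 CPM in iPSC-derived and 5.54 CPM in BM-derived macrophages at day 3 (-2.37 ± 0.48 SE, adjusted p = 0.0328). Cenpe is a kinetochore motor of dividing cells.

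Against day 12, the positive values were these. Flnc averaged 21.8 CPM in iPSC-derived and 0.572 CPM in BM-derived macrophages at day 6, and 7.04 CPM in iPSC-derived and 5.76 CPM in BM-derived macrophages at day 12 (5.10 ± 0.81 SE, adjusted p = 0.00652). Ccnd2 averaged 60.2 CPM in iPSC-derived and 26.4 CPM in BM-derived macrophages at day 6, and 16.5 CPM in iPSC-derived and 59 CPM in BM-derived macrophages at day 12 (3.02 ± 0.56 SE, adjusted p = 0.0159). Peg3 averaged 44.8 CPM in iPSC-derived and 13.4 CPM in BM-derived macrophages at day 6, and 24.8 CPM in iPSC-derived and 35.3 CPM in BM-derived macrophages at day 12 (2.25 ± 0.48 SE, adjusted p = 0.0452). Tubb5 averaged 919.9 CPM in iPSC-derived and 571 CPM in BM-derived macrophages at day 6, and 818 CPM in iPSC-derived and 1032 CPM in BM-derived macrophages at day 12 (1.02 ± 0.22 SE, adjusted p = 0.0452). Ccnd2 is a G1 cyclin and Peg3 an imprinted zinc finger gene, and both had the higher mean in iPSC-derived macrophages at day 6 and the lower mean there at day 12. Negative values followed. Il1rn averaged 2.31 CPM in iPSC-derived and 34.2 CPM in BM-derived macrophages at day 6, and 11.5 CPM in iPSC-derived and 16.8 CPM in BM-derived macrophages at day 12 (-3.30 ± 0.64 SE, adjusted p = 0.0249). Fpr1 averaged 11.9 CPM in iPSC-derived and 188 CPM in BM-derived macrophages at day 6, and 68.7 CPM in iPSC-derived and 127 CPM in BM-derived macrophages at day 12 (-3.10 ± 0.53 SE, adjusted p = 0.0139). Clec4n averaged 51.6 CPM in iPSC-derived and 392 CPM in BM-derived macrophages at day 6, and 172 CPM in iPSC-derived and 212 CPM in BM-derived macrophages at day 12 (-2.62 ± 0.38 SE, adjusted p = 0.00194). Acp5 averaged 13.7 CPM in iPSC-derived and 33.2 CPM in BM-derived macrophages at day 6, and 8.27 CPM in iPSC-derived and 3.27 CPM in BM-derived macrophages at day 12 (-2.60 ± 0.56 SE, adjusted p = 0.0494). Fpr1 is the receptor for formylated peptides. Acp5, an acid phosphatase of osteoclasts and macrophages, had the lower mean in iPSC-derived macrophages at day 6 and the higher mean there at day 12.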

How the results depend on the processing

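The 1982 genes called at day 6 were 2409 with DESeq2, 2278 with no filter on low counts and 1627 with only the groups compared, and between 1330 and 2018 with 1 library left out. With the fibroblast marker level as a covariate 264 were called and with the level of 4 non-macrophage lists 158; the marker levels do not overlap between the sources, so these fits cannot tell the 2 apart. The difference from day 0 (2951 genes) moved to 1880 with the non-macrophage covariate. The difference from day 3 (55 genes) became 174 with DESeq2, 325 with no filter, 96 with the covariate of short against long genes, 3 with the fibroblast covariate and 0 with the non-macrophage covariate (edgeR; 761 at an unadjusted p below 0.05), and ran from 16 to 98 with 1 library left out. The difference from day 12 (35 genes) became 235 with DESeq2, 612 with no filter, 58 with the short gene covariate, 22 with no scaling factors and 0 with either marker covariate (edgeR; 944 with the fibroblast and 923 with the non-macrophage covariate at an unadjusted p below 0.05), and ran from 6 without BM-derived day 6 replicate 1 to 165 without iPSC-derived day 12 replicate 3. The causes were not tested. The fibroblast and the short gene covariates were chosen after seeing the data. Among genes named by the rule, log2 fold changes turned sign with the fibroblast covariate for Ccnd2 (-0.72), Col1a2 (-0.83), H19 (-1.17), Itgav (0.10), Msln (-3.13), Myd88 (0.09), Ndufa1 (-0.15), Nfe2l2 (0.15) and Rps15 (-0.27). With the non-macrophage covariate the sign turned for Cd180 (-0.02), Cox4i1 (-0.05), Fcer1g (-0.60), Ftl1 (-0.20), H19 (-0.95), Msln (-1.73), Ndufa1 (-0.75), Ndufa4 (-0.57), Rpl32 (-0.62), Rps15 (-0.93), Rps19 (-0.19), Tyrobp (-0.44), Unc93b1 (0.03) and Vim (-1.62). Col1a2 is one of the markers summed in the fibroblast covariate, and Vim one of those summed in the non-macrophage covariate. The counts of these 2 genes thus form part of the level they were adjusted for, and their turns are not independent of it. Under the other alternatives run, no gene named by the rule and called at day 6 turned sign. No gene named by the rule but not called was called with the opposite sign, while some of these near 0 did change sign. Of 229 called genes named by the rule, 58 lost the call without 1 library. With the replicate number as a block 1896 genes were called at day 6, 2911, 59 and 38 in the differences from days 0, 3 and 12; deviations of same-numbered libraries correlated at 0.014, -0.002 and -0.030, so the numbers were not taken to pair the samples. Depth limits genes with few counts: folds against a group at 0 are bounds.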
